A study of Mus musculus with 4 samples.

Results

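The genes described here encode vasoactive peptides, their processing enzymes and receptors, and a nitric oxide synthase. They are the 10 rows of the count table that carry the symbols *Edn1*, *Ednra*, *Ednrb*, *Ece1*, *Apln*, *Aplnr*, *Agt*, *Agtr1a*, *Ace* and *Nos3*, out of 48587 genes in all, and they were taken by symbol alone. All 10 passed the filter on low counts, as did 18916 genes in total. The cells were primary vascular smooth muscle cells (VSMCs) grown out of descending aorta of C57BL/6J mice, 8 to 12 weeks old. The study as a whole used mice of both sexes, and the sex of the mice behind these libraries is not stated. The adventitia had been removed with enzymes and the endothelium by scraping, and cells were used between passages 5 and 7. The shCTR libraries came from cells that received a lentivirus with a hairpin against a plant microRNA sequence, and the shMettl14 libraries from cells that received a lentivirus with a hairpin against *Mettl14*. Both groups thus carried virus, which was left on the cells for 24 hours, and both were collected 48 hours after the medium was changed. Poly-A RNA of 2 libraries per group, lettered A and B, was sequenced on both ends. Nothing in the sources states that the letters mark separate animals or cultures, so that p-values measure only the spread between these libraries, which may be technical. The main fit has no term for the letter, so differences between the letters are part of that spread and enter its errors, intervals and p-values. *Mettl14* encodes a subunit of the complex that places N6-methyladenosine (m6A) on mRNA, and the comparison asks which transcripts differ when it is depleted.

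Vascular tone is set by peptides and gases that act on smooth muscle. Endothelin is secreted mainly by endothelium as a precursor, is cut by endothelin-converting enzyme, and contracts smooth muscle through the A-type receptor, while the B-type receptor on endothelium releases nitric oxide and clears the peptide. Angiotensinogen is cut by renin and then by angiotensin-converting enzyme to angiotensin II, which contracts vessels through the AT1 receptor. Apelin is an endothelial peptide whose receptor sits on endothelium and other vascular cells, and endothelial nitric oxide synthase makes the gas that relaxes smooth muscle. In textbook form endothelin, apelin and *Nos3* are thus endothelial products, angiotensinogen comes mainly from the liver, and the receptors *Ednra* and *Agtr1a* belong to the smooth muscle cell.

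RefSeq promoter windows on GRCm38.p6 were matched by symbol for 7 of the 10 genes, in 11 windows, and none was found for *Agtr1a*, *Aplnr* and *Nos3*. For 9 of the 11 windows the bases after the start were found near the start of a GENCODE transcript of the gene. All 11 were kept. The 250 bases before the start of the 3 peptide precursor genes are shown 5′ to 3′ on the strand of the gene, because their transcripts ranged from among the most abundant to nearly absent in these cells. The *Edn1* window lies at chr13:42301226-42301475 on the plus strand, the *Apln* window at chrX:48034854-48035103 on the minus strand and the *Agt* window at chr8:124569707-124569956 on the minus strand. Capitals mark CG dinucleotides in *Edn1* and *Apln*, and the TATA word TATAAA in *Agt*, which has no CG dinucleotide.
Edn1: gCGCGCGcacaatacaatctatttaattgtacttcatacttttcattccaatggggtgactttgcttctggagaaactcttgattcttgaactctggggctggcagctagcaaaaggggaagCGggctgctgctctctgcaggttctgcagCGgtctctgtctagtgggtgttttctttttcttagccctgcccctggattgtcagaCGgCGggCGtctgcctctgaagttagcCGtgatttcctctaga
Apln: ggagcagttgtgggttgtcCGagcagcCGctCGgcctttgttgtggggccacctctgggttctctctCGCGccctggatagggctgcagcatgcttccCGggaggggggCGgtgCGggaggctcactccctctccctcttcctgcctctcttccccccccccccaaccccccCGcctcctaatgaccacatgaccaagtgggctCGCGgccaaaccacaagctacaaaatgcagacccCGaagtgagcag
Agt: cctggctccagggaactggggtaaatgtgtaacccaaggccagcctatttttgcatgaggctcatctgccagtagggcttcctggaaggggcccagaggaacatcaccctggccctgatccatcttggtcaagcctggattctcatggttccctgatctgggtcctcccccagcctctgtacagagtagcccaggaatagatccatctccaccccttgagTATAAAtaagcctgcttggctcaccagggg
The *Edn1* window held 9 CG dinucleotides and 50.4% G or C, the *Apln* window 12 and 65.2%, and the *Agt* window 0 and 55.6%, against medians of 6 and 52.4% over 32851 windows. Among the other windows of these genes, *Ednra* had 6 CG dinucleotides, *Ednrb* 11, the first window of *Ace* 19 and that of *Ece1* 22. A short set of words was searched on both strands. TATAAA can lie inside a CArG box, and the other words do not contain one another. TATAAA was found in 2 of the 11 windows, 30 bases before the start of *Agt* and, as TTTATA, 31 bases before one start of *Ace*, and 12.4% of all windows held it. The ETS word ACAGGAA was found once, 21 bases before one start of *Ece1*, against 7.20% of all windows. The AP-1 word TGANTCA, the GATA word AGATAA, the hypoxia response word TACGTG and the CArG box of smooth muscle genes were in 0 of the 11 windows and in 6.75%, 9.99%, 2.72% and 1.47% of all windows, which says only that these letters are not in the windows.

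The libraries held between 114343653 and 124815868 counts. A gene with 0 counts could have had up to 3, or 0.0231 to 0.0278 CPM (read counts relative to library size, scaled by the trimmed mean of M values, TMM), and this limit covers counting error only. *Mettl14* had 2050 and 2154 counts in shCTR A and B against 546 and 568 in shMettl14 A and B, a log2 fold change of -2.08 (SE 0.25), so that the libraries went the way of their labels. It did not pass the test across all genes (edgeR quasi-likelihood test, adjusted p = 1), and 0 of 18916 genes did, or 0.00%, although 315 genes, 1.67%, had an unadjusted p under 0.05. With DESeq2 the count of called genes was 4, with the letter as a replicate block in edgeR it was 9, and *Mettl14* was among both, with adjusted p-values of 1.71e-09 and 0.00393. The common dispersion, the spread that edgeR estimates over all genes, was 0.178 in the main fit and 0.0418 with the block. Across genes, log2 CPM correlated at 0.985 between the A libraries and 0.977 between the B libraries, but at 0.953 between the shCTR and 0.969 between the shMettl14 libraries, and both B libraries lay above both A libraries for 27.2% of genes.

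The cells carried the markers of smooth muscle and of endothelium. *Acta2*, smooth muscle actin, had 3546 and 2798 CPM in shCTR A and B and 2171 and 2072 CPM in shMettl14 A and B. *Pecam1*, an endothelial adhesion molecule, had 477 and 820 CPM in shCTR A and B and 485 and 545 CPM in shMettl14 A and B. *Cdh5*, the cadherin of endothelial junctions, had 508 and 818 CPM in shCTR and 566 and 616 CPM in shMettl14. These are high levels for defining endothelial genes in cells labelled as VSMCs. Of 12 endothelial markers 8 were over 10 CPM in every library, as were 9 of 10 smooth muscle markers, and no marker of either list was under 1 CPM in every library. The summed endothelial markers were 2306 and 4280 CPM in shCTR A and B and 2124 and 2788 CPM in shMettl14 A and B. The log2 ratio of these sums was -0.12 in letter A and -0.62 in letter B, and without *Emcn*, the most abundant marker, left out after its values were seen, it was -0.01 in A and -0.35 in B. Only 3 of the 12 markers (*Emcn*, *Tie1* and *Vwf*) were lower with shMettl14 in both letters, and 9 went opposite ways. The summed smooth muscle markers were 7020 and 5897 CPM in shCTR and 4587 and 4928 CPM in shMettl14, with ratios of -0.61 in A and -0.26 in B. Most of these sums came from *Acta2* and *Tagln*, which had 3546 and 2333 CPM in shCTR A. Of the 10 markers 7 were lower with shMettl14 in both letters, beside 27.6% of all genes tested, 1 (*Synpo2*) was higher in both, and 2 went opposite ways. *Myh11*, the smooth muscle myosin heavy chain, had 338 and 233 CPM in the A libraries and 101 and 74.9 CPM in the B libraries. Of 7 leukocyte markers 4 (*Ptprc*, *Adgre1*, *Cd3e* and *Cd79a*) were under 1 CPM in every library and the list summed to between 11.1 and 15.3 CPM. The 6 fibroblast and adventitial markers summed to between 153 and 331 CPM. Of these, 3 (*Dpt*, *Pi16* and *Lum*) were under 1 CPM in every library, and only 2 (*Dcn* and *Col15a1*) were over 10 CPM in every library. In bulk RNA, fewer cells of a type and less RNA per cell cannot be told apart, and the part of these marker levels in the results that follow was not tested.

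**Figure D1:**
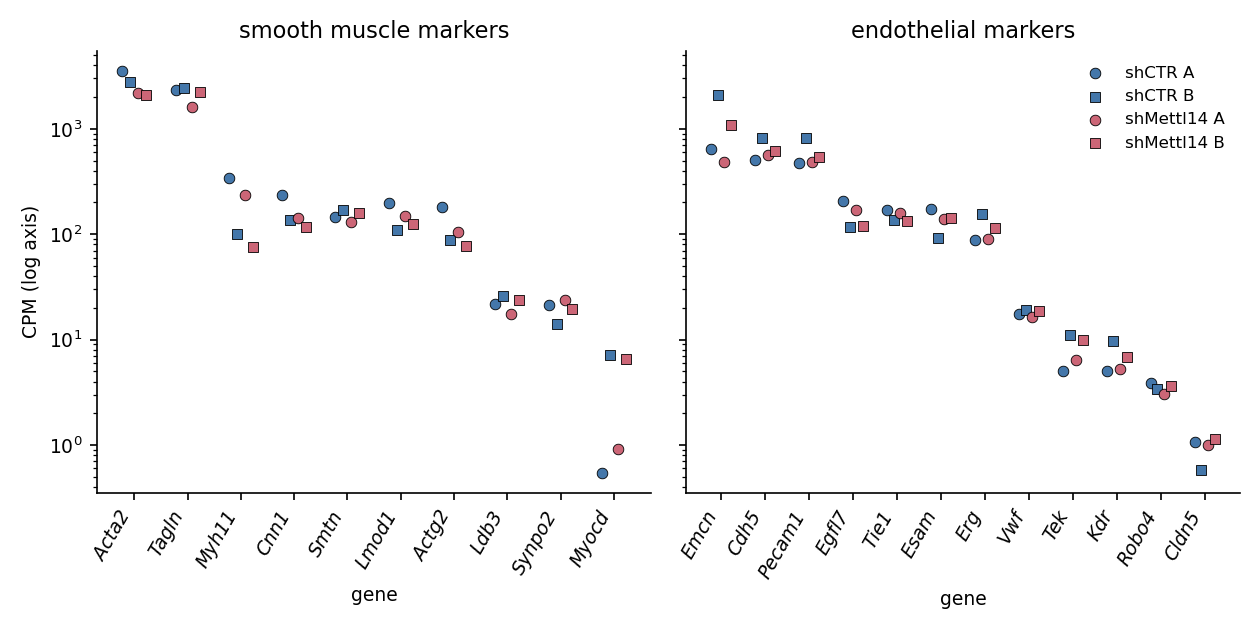
CPM on a log axis of 10 smooth muscle markers (left) and 12 endothelial markers (right) in the 4 libraries, with circles for letter A, squares for letter B, blue for shCTR and red for shMettl14. *Pecam1* and *Cdh5* sit between 477 and 820 CPM in every library, and *Myh11* is higher in both A libraries than in both B libraries.

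Levels of different genes were compared per length of exon, as RPKM (CPM divided by the exon length in kilobases). *Edn1* was the highest of the 10 genes, with a mean of 219 RPKM over the 4 libraries, above 99.1% of the 18237 tested genes that had a length. *Ece1* followed at 125 RPKM, *Apln* at 35.5 RPKM, *Ace* at 14.0 RPKM and *Nos3* at 4.95 RPKM, and the ranges over the 4 libraries did not overlap between any of these neighbours. These 5 genes encode ligands or enzymes. Below them lay a 20.8-fold step from *Nos3* to *Ednra*, whose mean was 0.238 RPKM. In single libraries this step was 10.4 and 40.9 times in shCTR A and B and 5.70 and 25.6 times in shMettl14 A and B. *Agt* had 0.231 RPKM, *Ednrb* 0.211 RPKM, *Agtr1a* 0.104 RPKM and *Aplnr* 0.0323 RPKM, and the ranges of neighbours in this lower order overlapped, so that the order among them was not resolved. The 4 receptors were all in this lower group, and none of them was above more than 22.1% of the tested genes in RPKM. *Edn1* exceeded *Ednra* in level per length by 639 to 1204 times in single libraries, and *Ednrb* by 882 to 1259 times. *Apln* exceeded *Aplnr* by 652 to 4636 times, and the highest of these ratios rests on 3 *Aplnr* counts.

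**Figure D2:**
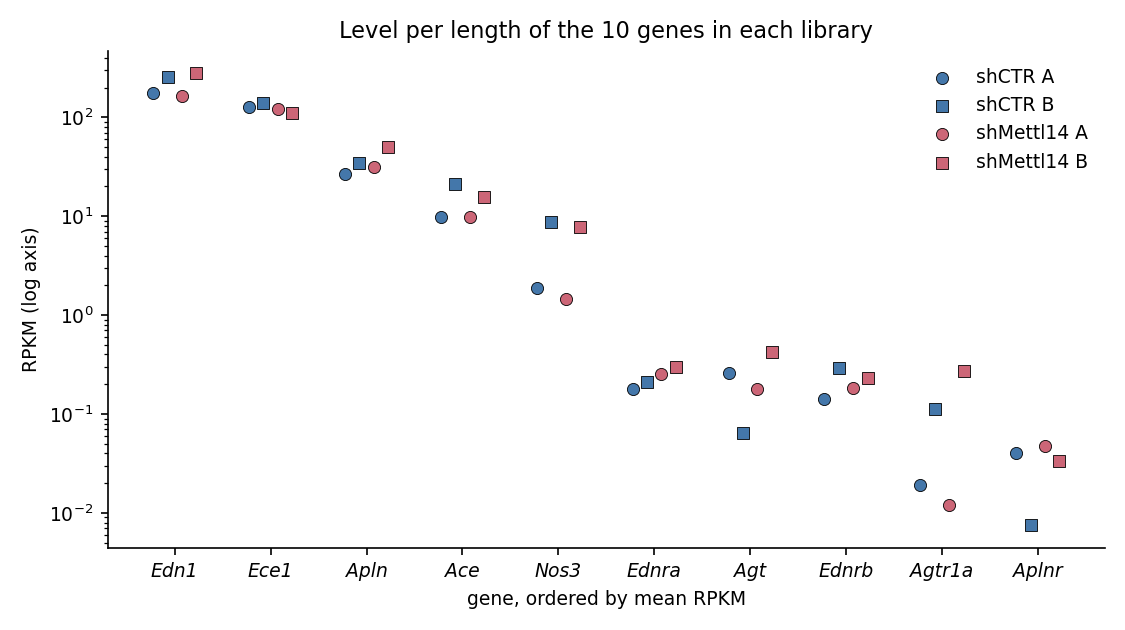
RPKM on a log axis of the 10 genes, ordered by their mean over the 4 libraries, with circles for letter A, squares for letter B, blue for shCTR and red for shMettl14. The 5 ligand and enzyme genes from *Edn1* to *Nos3* lie above 1.46 RPKM in every library, and the other 5 lie below 0.423 RPKM.

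In the endothelin system the ligand and its converting enzyme were abundant, the receptors were near 1 CPM, and no gene differed between hairpins by the test across all genes. *Edn1*, the precursor of endothelin-1 (ENSMUSG00000021367, GRCm38 chr13:42301476-42307990, plus strand), had 378 and 549 CPM in shCTR A and B and 351 and 595 CPM in shMettl14 A and B. Both B libraries were higher than both A libraries, and the hairpins overlapped, with means of 463 ± 121 CPM (SD, n = 2) for shCTR and 473 ± 173 CPM (SD, n = 2) for shMettl14. The log2 fold change was 0.03 (SE 0.34, 95% interval -0.86 to 0.92), and the ratio was -0.11 in letter A and 0.12 in letter B. *Ece1*, the protease that cuts big endothelin to its active form (ENSMUSG00000057530, GRCm38 chr4:137862237-137965229, plus strand), had 681 and 731 CPM in shCTR A and B and 650 and 586 CPM in shMettl14 A and B. Both shMettl14 libraries were below both shCTR libraries, as was the case for 13.3% of all genes tested. The log2 fold change of *Ece1* was -0.19 (SE 0.19, 95% interval -0.68 to 0.29), the narrowest interval of the 10 genes, with ratios of -0.07 in A and -0.32 in B. With library totals in place of TMM factors the A ratio was 0.01, so that its sign rests on the scaling.

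The receptor *Ednra*, through which endothelin contracts smooth muscle (ENSMUSG00000031616, GRCm38 chr8:77663031-77724464, minus strand), had 112 and 126 counts in shCTR A and B and 167 and 215 counts in shMettl14 A and B. In CPM these were 0.986, 1.17, 1.41 and 1.65. Both shMettl14 libraries were above both shCTR libraries, as in 14.7% of all genes tested, and *Ednra* was the 1 gene of the 10 for which this held. The log2 fold change was 0.51 (SE 0.39, 95% interval -0.50 to 1.52), with nearly equal ratios of 0.50 in both letters, and it did not pass (edgeR adjusted p = 1, unadjusted p = 0.254). *Ednrb*, the receptor that endothelium uses to clear endothelin (ENSMUSG00000022122, GRCm38 chr14:103814625-103844402, minus strand), had 68 and 134 counts in shCTR A and B and 92 and 129 counts in shMettl14 A and B. The hairpins overlapped and the letters went opposite ways, with ratios of 0.36 in A and -0.32 in B and a log2 fold change of -0.06 (SE 0.53, 95% interval -1.42 to 1.31). *Ednra* and *Ednrb* were alike in level per length, with a ratio of 0.733 in shCTR B and between 1.28 and 1.41 in the other libraries.

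In the apelin system the ligand was abundant and its receptor was at the edge of detection. *Apln*, the apelin precursor (ENSMUSG00000037010, GRCm38 chrX:48025146-48034853, minus strand), had 83.6 and 110 CPM in shCTR A and B and 98.1 and 156 CPM in shMettl14 A and B. Within each letter the shMettl14 library was the higher one, and shCTR B was above shMettl14 A, so the groups overlapped. The log2 fold change was 0.39 (SE 0.30, 95% interval -0.39 to 1.18), with ratios of 0.23 in A and 0.51 in B (edgeR adjusted p = 1, unadjusted p = 0.252). *Aplnr*, the apelin receptor (ENSMUSG00000044338, GRCm38 chr2:85136225-85139923, plus strand), had 17 and 3 counts in shCTR A and B and 21 and 16 counts in shMettl14 A and B. The 3 counts of shCTR B equal the limit that a count of 0 allows, and the ratio of 1.64 in letter B, against 0.22 in letter A, rests on that library. The log2 fold change was 0.74 (SE 1.05, 95% interval -1.96 to 3.45), and without shCTR B it was -6.7e-05.

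Of the renin-angiotensin genes the converting enzyme was well measured, and the substrate and the receptor were not. *Ace*, which makes angiotensin II and is held on the endothelial surface (ENSMUSG00000020681, GRCm38 chr11:105967945-105989964, plus strand), had 51.5 and 111 CPM in shCTR A and B and 51.6 and 82.2 CPM in shMettl14 A and B. The A libraries were nearly equal and shCTR B was the highest library, with ratios of 0.00 in A and -0.44 in B. The log2 fold change was -0.28 (SE 0.45, 95% interval -1.44 to 0.87), and it lay between -0.74 and 0.38 when each library was left out in turn, positive without shCTR B and without shMettl14 A. *Agt*, angiotensinogen (ENSMUSG00000031980, GRCm38 chr8:124556534-124569706, minus strand), had 56 and 13 counts in shCTR A and B and 40 and 104 counts in shMettl14 A and B. The low shCTR B and the high shMettl14 B library gave a ratio of 2.57 in letter B, where letter A gave -0.53, and the log2 fold change was 0.89 (SE 0.87, 95% interval -1.35 to 3.13). *Agtr1a*, the AT1 receptor gene of the a type (ENSMUSG00000049115, GRCm38 chr13:30336441-30382867, plus strand), had 6 and 34 counts in shCTR A and B and 4 and 98 counts in shMettl14 A and B. Both B libraries were above both A libraries, by 5.96 times in shCTR and 22.4 times in shMettl14, and the hairpins overlapped. Its ratios were -0.46 in A and 1.22 in B, and its log2 fold change of 1.10 had the widest interval of the 10 genes (SE 1.52, 95% interval -2.82 to 5.02). Without shMettl14 B the log2 fold change was -2.41. Its paralog *Agtr1b*, named after its values were seen, had 24 and 73 counts in shCTR A and B and 32 and 107 counts in shMettl14 A and B. *Agtr1b* was above *Agtr1a* per length in every library, by 1.42 to 10.4 times, and reads that both genes share could be split between them in a way that the sources do not state.

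*Nos3*, endothelial nitric oxide synthase (ENSMUSG00000028978, GRCm38 chr5:24364810-24384474, plus strand), had 881 and 3886 counts in shCTR A and B and 718 and 4159 counts in shMettl14 A and B. In CPM these were 7.75, 36.0, 6.05 and 32.0. The letters separated far more than the hairpins: B was 4.64 times A with shCTR and 5.29 times A with shMettl14. The log2 fold change was -0.20 (SE 1.01, 95% interval -2.80 to 2.39), with ratios of -0.36 in A and -0.17 in B, so both letters had the lower value with shMettl14. Leaving out 1 library moved it between -1.85 and 1.29, positive without shCTR B and without shMettl14 A. Of its exon bases 32.28% overlap the genes *Atg9b* and *Gm15587* on the other strand, which had at most 113 and 131 counts in any library, and whether strand was used in counting is not stated. Reads in the overlap could have been lost from *Nos3* or shared in a way that the sources do not state. The level of *Nos3* per length, and the step from it to *Ednra*, carry this limit.

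**Figure D3:**
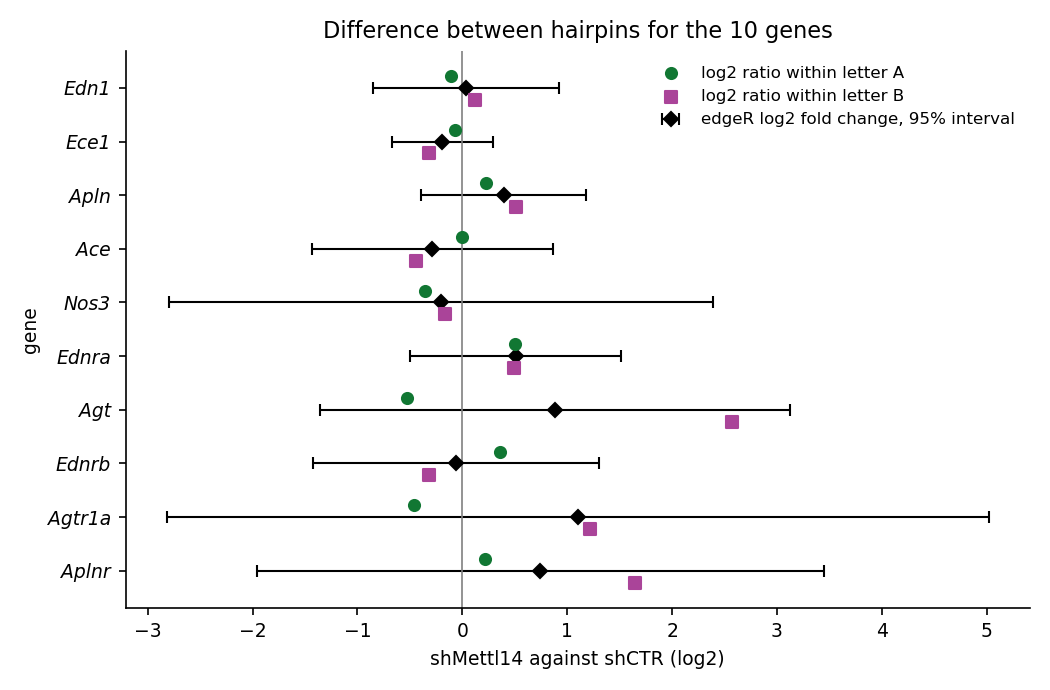
Difference between hairpins on the log2 scale for the 10 genes in order of level, with the edgeR fold change and its 95% interval (diamonds and bars) and the ratio within letter A (green circles) and letter B (purple squares). Every interval crosses 0, the narrowest for *Ece1* and the widest for *Agtr1a*, and the 2 letters lie close together for *Ednra*. The intervals are from the fit without a block and include the difference between letters.

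Across the 10 genes, 0 passed the adjusted threshold and 0 had an unadjusted p under 0.05 (edgeR), beside 0.00% and 1.67% of all genes tested. DESeq2 gave 0 at both thresholds, and the fit with a replicate block gave 0 and 1 (*Apln*, log2 fold change 0.37, SE 0.16, unadjusted p = 0.041). Within letters, 3 genes (*Ednra*, *Apln* and *Aplnr*) were higher with shMettl14 in both, against 30.0% of all genes. Another 2 genes (*Ece1* and *Nos3*) were lower in both letters, against 27.6% of all genes. The other 5 genes went opposite ways in the 2 letters, *Ace* with a ratio of only 0.00 in A. These shares are close to those of all genes. The 10 log2 fold changes had a median of 0.21, with 6 above 0 and 4 below, beside a median of 0.01 over all genes tested. By letter their median was -0.03 in A and 0.31 in B, beside 0.00 and 0.02 over all genes. For 6 of the 10 genes, *Edn1*, *Ednrb*, *Apln*, *Ace*, *Agtr1a* and *Nos3*, both B libraries were above both A libraries, beside the 27.2% of all genes given above. The endothelial markers showed the same order for 7 of 12 genes and the smooth muscle markers for 3 of 10 (*Myocd*, *Smtn* and *Ldb3*, named after their values were seen). The reverse order, both A libraries above both B libraries, held for the endothelial markers *Tie1* and *Egfl7*. It also held for the smooth muscle markers *Myh11*, *Cnn1*, *Actg2*, *Lmod1* and *Synpo2*. All of these but *Myh11* were named after their values were seen, and the share of all genes with the reverse order was not counted.

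**Figure D4:**
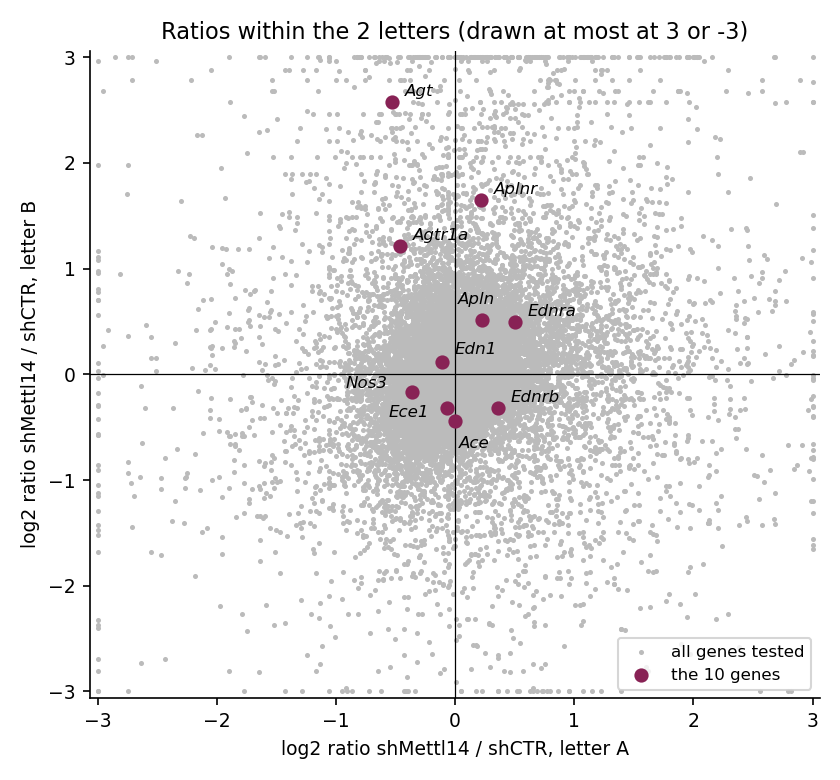
Log2 ratio of shMettl14 to shCTR in letter A (horizontal) and letter B (vertical) for all 18916 genes tested (grey, drawn at 3 or -3 when beyond) and the 10 genes (purple). *Ednra* lies at 0.50 on both axes and *Apln* at 0.23 in A and 0.51 in B, *Agt* and *Agtr1a* lie left of 0 and well above 0 in letter B, *Aplnr* lies at 0.22 in A and 1.64 in B, and the other 5 genes lie within 0.5 of 0 on both axes.

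A list of 65 other genes of these and neighbouring vasoactive systems was examined, of which 64 were in the table and 43 were tested. None of the 43 passed the adjusted threshold and 0 had an unadjusted p under 0.05 (edgeR), with 19 log2 fold changes above 0, 24 below and a median of -0.05. Over all genes tested, 9686 fold changes were above 0 and 9230 below. With DESeq2 both counts were 0 as well, while with a replicate block 7 genes, 3 higher and 4 lower, had an unadjusted p under 0.05 and 0 passed after adjustment. Of these genes 12 were higher with shMettl14 in both letters and 15 were lower in both, beside 30.0% and 27.6% of all genes tested. Among 8 tested renin-angiotensin genes 6 had a positive and 2 a negative fold change, with a median of 0.29. The most abundant were *Atp6ap2*, the prorenin receptor (97.8 CPM, log2 fold change 0.17, SE 0.25), and *Lnpep*, an aminopeptidase that binds angiotensin IV (53.2 CPM). *Lnpep* had 23.8 CPM in shCTR A and between 61.9 and 64.1 CPM in the other libraries, and its fold change was 0.51 (SE 0.48). Renin itself was all but absent, since *Ren1* had 5 counts in shCTR A and 0 in the others, and *Agtr2*, the gene of the other angiotensin receptor type, had 0 counts in all 4 libraries. *Mas1*, the receptor of angiotensin-(1-7), had 10 and 7 counts in shCTR A and B and 36 and 31 counts in shMettl14 A and B, and was named after its values were seen. It had the largest positive fold change of the list, 1.81 (SE 0.72), at an unadjusted p of 0.053 and an edgeR adjusted p of 1.

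Of the 8 tested nitric oxide genes 1 had a positive and 7 a negative log2 fold change, with a median of -0.28. Of all 18916 genes tested, 9230 had a negative one. The list holds genes that act for and against nitric oxide, such as *Ddah1* and *Cav1*, so these signs give no direction for the pathway. Within letters, 4 of the 8 were lower with shMettl14 in both, beside 27.6% of all genes, 1 was higher in both and 3 went opposite ways. *Ddah2* was at -0.05, and *Arg1* and *Arg2* had at most 25 and 31 counts in any library (all named after their values were seen). For 3 of the 8 genes both shMettl14 libraries were below both shCTR libraries, beside 13.3% of all genes tested. *Ddah1*, which degrades an inhibitor of nitric oxide synthases, was one of the 3, beside *Gch1* and *Nosip*, which were named after their values were seen. *Ddah1* had 407 and 488 CPM in shCTR A and B and 368 and 349 CPM in shMettl14 A and B. Its fold change was -0.32 (SE 0.20, edgeR unadjusted p = 0.170). *Cav1*, the caveolar protein that binds and restrains *Nos3*, was the most abundant of these genes at a mean of 1312 CPM, with a fold change of 0.20 (SE 0.21). The other synthase genes were near the counting limit, with at most 17 counts of *Nos1* and 4 of *Nos2* in any library, so that *Nos3* made up nearly all synthase counts.

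Among the remaining ligand and receptor genes the levels were again uneven. *Ece2* (23.7 CPM) was 23.7 to 35.0 times below *Ece1* per length, and its fold change was -0.03 (SE 0.25). The other endothelin ligands *Edn2* and *Edn3* had at most 5 and 1 counts, and *Kel*, which can cut big endothelin-3, had at most 7. *Furin*, the protease that processes the apelin precursor, had 125 CPM and a fold change of 0.10 (SE 0.30), and *Apela*, a second ligand of the apelin receptor, had at most 5 counts. Of 5 tested natriuretic peptide genes the receptors *Npr2* (301 CPM, fold change -0.14, SE 0.22) and *Npr3* (213 CPM, 0.25, SE 0.27) were the most abundant. The adrenomedullin and CGRP list had 1 positive and 5 negative fold changes among 6 tested genes, beside 9230 negative ones among all 18916 genes tested. *Adm*, the peptide precursor, had 131 CPM and a fold change of -0.19 (SE 0.27), while *Calcrl*, a part of its receptor, had 31.1 CPM and 0.48 (SE 0.30), the 1 positive value. *Ramp2* and *Ramp3* of the same list, named after their values were seen, were at -0.61 (SE 0.67) and -0.48 (SE 0.76). The kininogens *Kng2* (1.46 CPM, fold change 0.05, SE 0.44) and *Kng1* (0.397 CPM, 0.29, SE 0.88) were low. *Avpr1a*, the vascular vasopressin receptor, had 4.46 and 1.59 CPM in shCTR A and B and 2.53 and 0.83 CPM in shMettl14 A and B. It was the tested gene of the list with the most negative fold change, -0.85 (SE 0.76, edgeR unadjusted p = 0.316), and *Uts2*, urotensin, had at most 9 counts. In the 10 tested genes of receptor coupling the median was -0.05. *Gnaq*, the G protein of the endothelin and AT1 receptors, had 244 CPM and a fold change of 0.19 (SE 0.21). *Rgs5*, which shortens G protein signals and marks pericytes, had 286 and 270 CPM in the A libraries and 40.5 and 48.8 CPM in the B libraries, an order opposite to that of *Nos3*.

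**Figure D5:**
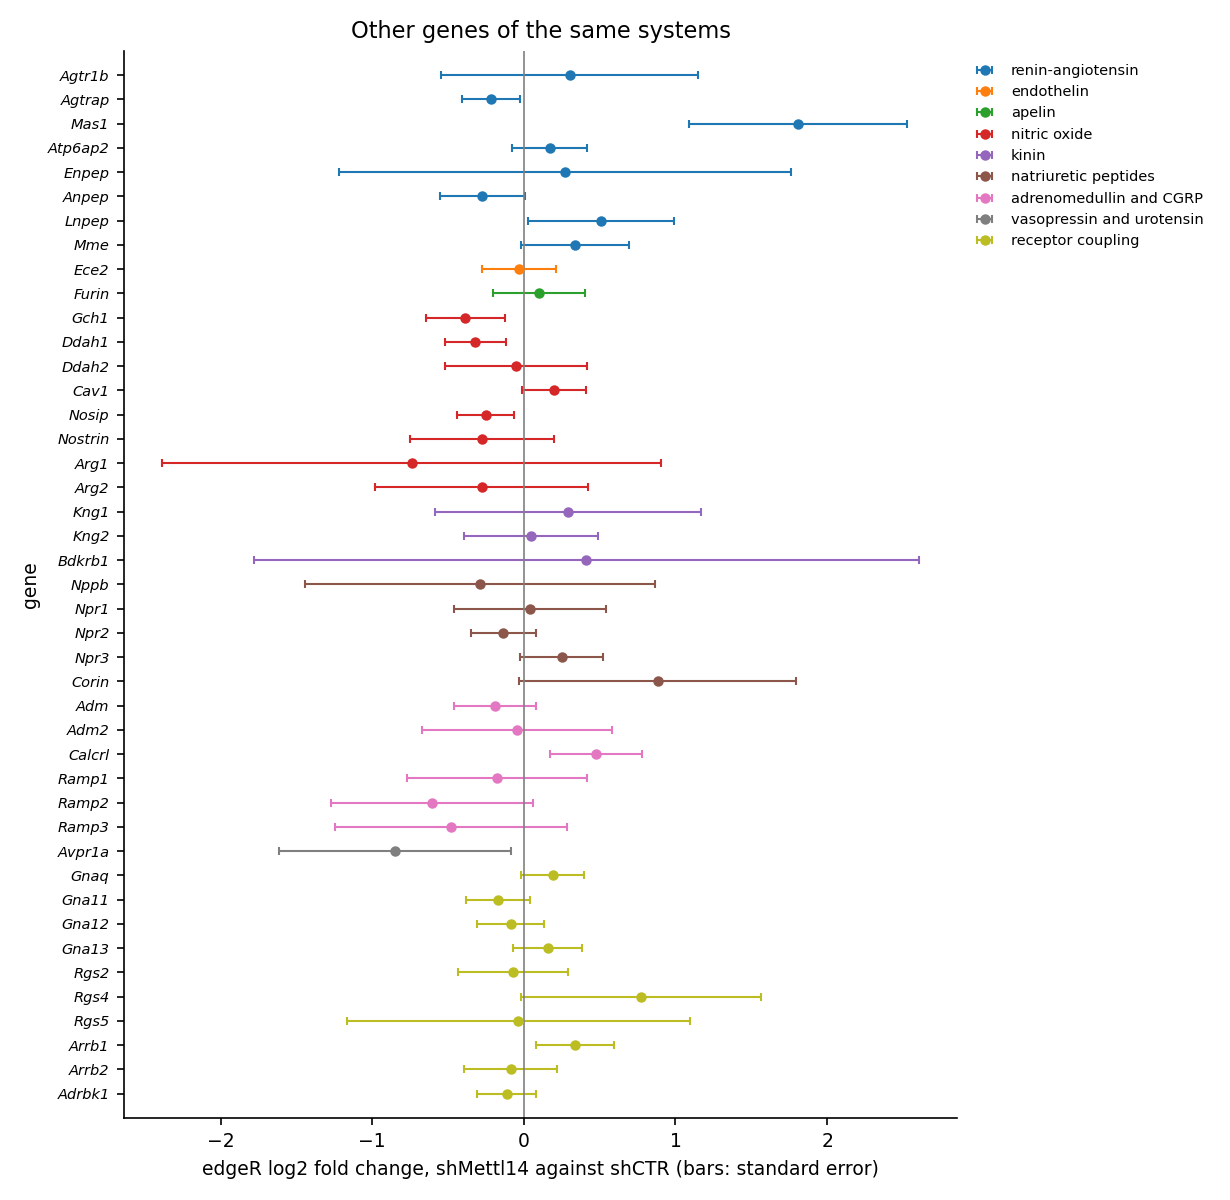
edgeR log2 fold change of shMettl14 against shCTR with its standard error for the 43 tested genes of the list, coloured by system. Most lie within 0.5 of 0, *Mas1* is the highest at 1.81 and *Avpr1a* the lowest at -0.85. Of 8 nitric oxide genes 7 lie left of 0, beside 9230 of all 18916 genes tested with a negative fold change. These genes act both for and against nitric oxide.

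m6A itself is not among the values used here. As a property of the transcripts that the rule did not use, the word GGACT, a common form of the m6A consensus, was counted in the longest coding transcript of each gene (GENCODE M21), with a median of 1.05 per kilobase over 14332 tested genes and quartiles of 0.644 and 1.52. *Agtr1a* held 5 copies (2.27 per kilobase) and *Aplnr* 8 (2.16 per kilobase), above 92.9% and 91.2% of these genes, and *Nos3* held 7 (1.69 per kilobase). *Ednra* held 1 copy (0.276 per kilobase), above 9.18% of genes. *Apln*, *Ednrb*, *Agt*, *Ece1*, *Ace* and *Edn1* lay between 0.935 and 1.27 per kilobase, within the quartiles. A copy of the word is not a methylated site.

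For the 6 genes with a mean of at least 1 CPM, the genes with the most similar pattern were sought among 13018 genes of at least 1 CPM, by the Euclidean distance of centred log2 CPM over the 4 libraries. *Edn1* lay nearest *Tmem47* (distance 0.0322) and *Plk4* (0.0529), *Ece1* nearest *Pmm2* (0.0318) and *Accs* (0.0326), and *Apln* nearest *Gm18852* (0.0371) and *Mbip* (0.0813). *Ednra* lay nearest *Ddx3y* (0.0326) and *Mtm1* (0.0391), and *Ace* nearest *Mettl20* (0.0578) and *E2f8* (0.0728). *Nos3* lay nearest *Hoxb8* and *Itga11*, at the larger distances of 0.210 and 0.212, although their correlation with *Nos3* over the 4 libraries (0.996 and 0.997) was no lower than that of *Ece1* with its nearest genes (0.991 and 0.995). With 4 libraries many genes share a pattern by position alone, and these distances are a description.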

How the data were processed

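The authors deposited 1 table of raw counts per gene for 4 mRNA-seq libraries, made from strand-specific poly-A libraries with STAR (mm10, GRCm38) and featureCounts, without normalization. Strand setting and treatment of multimapped reads are not given in the sources used here. All symbols were used as deposited. The counts were tested with edgeR 4.0.16 in R 4.3.3: TMM factors, filterByExpr by group, robust quasi-likelihood fit of shMettl14 against shCTR on all 4 libraries, Benjamini-Hochberg over 18916 genes, threshold 0.05. SE is the absolute log2 fold change over the square root of F. CPM and RPKM were computed from the counts with TMM factors, RPKM with GENCODE M21 exon lengths, and within-letter ratios with a prior count of 2. With 2 against 2 libraries an exact two-sided permutation test cannot go below 0.333, so none was used. Alternatives were RLE and upper-quartile factors, DESeq2 1.42.0, 2 other filters, a replicate block, each library left out, and for ratios library totals and a prior count of 0.5. The counting limit of 3 counts is a fixed setting, and library totals of at least 114343653 counts only convert it to CPM.

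The 10 genes, the gene lists and the naming rule were set with earlier results of these data known. The rule names *Mettl14*, the 10 genes, listed genes with an unadjusted p under 0.05, the 2 most abundant genes per system, 4 defining markers and the 2 nearest genes of each gene of at least 1 CPM. Scripts were tested on simulated data with less spread between libraries than these data have. That test checks the code and does not measure the power of the fit here. Python 3.11.15 with pandas 2.3.3 did the other steps.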

Additional observations from a re-analysis of the deposited data

How the results depend on the processing

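None of the 10 genes, nor of the listed genes of their systems, passed the adjusted threshold under any alternative run. Over all genes, 0 passed in edgeR with TMM, RLE or upper-quartile factors, with either other filter and without each library in turn, while DESeq2 called 4 and the replicate block 9, *Mettl14*, *Chst12*, *Cbfb* and *Atp6v1a* among both. *Mettl14* was at log2 fold changes of -2.09 (DESeq2, adjusted p = 1.71e-09) and -2.08 (replicate block, edgeR adjusted p = 0.00393). The cause of the higher counts was not tested. At an unadjusted p under 0.05 the count was 315, between 302 and 317 with other factors, 387 in DESeq2, 1941 with the replicate block and, leaving out 1 library in turn, between 85 (shMettl14 B) and 1256 (shCTR A). Whether the letters pair the libraries is not stated. Across genes, the deviations of the A libraries from their group means correlated at 0.578. With 2 libraries per group the B deviations mirror those of A, so this is only 1 comparison. Under the replicate block *Apln* had an unadjusted p of 0.041 (log2 fold change 0.37, SE 0.16, edgeR adjusted p = 0.465) and *Ednrb* a fold change of 0.016, a change of sign. The other 9 genes kept their sign with the block, where *Agtr1a* was at 0.57 (SE 0.82) in place of 1.10 (SE 1.52) and *Nos3* at -0.26 (SE 0.17) in place of -0.20 (SE 1.01), as did all 10 with RLE factors, upper-quartile factors, DESeq2 and no filter, and the 8 still tested with at least 10 counts in every library, which left out *Agtr1a* and *Aplnr*. Leaving out each library in turn kept the sign in 30 of 40 fits. The fold changes then ranged from -2.41 to 2.88 for *Agtr1a*, -0.74 to 0.38 for *Ace*, -0.40 to 0.36 for *Edn1*, -0.49 to 0.56 for *Ednrb*, -6.7e-05 to 2.38 for *Aplnr* and -1.85 to 1.29 for *Nos3*. *Agt* (0.13 to 2.23), *Ednra* (0.39 to 0.63), *Ece1* (-0.27 to -0.12) and *Apln* (0.02 to 0.69) kept their sign throughout, and *Mettl14* lay between -2.16 and -2.01. A library left alone in its group was assumed to vary like the other group. With library totals in place of TMM factors the within-letter ratios of *Ednra* were 0.58 in A and 0.64 in B, and that of *Nos3* in B was -0.03. Leaving out 1 library gives the groups unequal letters, and these fits had no block. Low counts limit *Aplnr*, *Agtr1a* and *Agt*. The spread between letters enters the error of all 10 genes in the fits without a block, that of *Agtr1a* included. With the block the SE was 0.17 in place of 0.45 for *Ace*, 0.16 in place of 0.34 for *Edn1* and 0.16 in place of 0.30 for *Apln*. It was lower for each of the 10 genes except *Aplnr*, where it was 1.16 in place of 1.05.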
